A study of Arabidopsis thaliana with 6 samples.

Results

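The lipid transfer protein superfamily of Arabidopsis thaliana was followed in non-green and green seeds from the siliques of a chlorophyll synthase mutant. Its members were the rows of the deposited expression table whose short description holds the words lipid transfer or lipid-transfer, apart from the 2S albumin storage genes, which gave 123 of 32678 gene models. Of these, 108 are described as bifunctional inhibitor and lipid transfer proteins, 8 carry an LTP name alone, 5 are glycolipid transfer proteins and 2 hold a START lipid-binding domain. The last 2 kinds share the words and not the protein fold. Genes that are named for lipid transfer elsewhere but described in other words are not among them.

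Non-green (yellow) seeds were labelled with the genotype Atchlsyn1-1, and green seeds with Atchlsyn1-1/CHLSYN, so by these labels both groups carry the mutant allele. Each group had 3 libraries of total RNA from whole seeds taken out of the siliques and split into those without and those with photosynthesis. The parent plants were kept at 22 °C under days of 16 h light and 8 h dark. The sources used here do not state seed age, the nature of the allele or the plants behind a library. The p-values therefore rest on differences among libraries that may be technical repeats. In these bulk samples, fewer cells of a type and less RNA per cell cannot be told apart.

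Lipid transfer proteins are small secreted proteins with a signal peptide and a compact fold that 8 cysteines hold together by disulfide bridges. The fold encloses a pocket for a fatty acyl chain. The proteins act mainly outside the plasma membrane, where they are linked to the cutin, wax and suberin layers of the plant surface and to defence, and in a seed such layers lie in the coat and on the embryo. The 2S albumins, the storage proteins left out here, share the cysteine pattern.

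The cysteine pattern could be read from the coding sequences of RefSeq on assembly TAIR10.1, which hold an entry for all 123 members. A pattern of C, C, CC, CxC, C and C was found in 106 of them, namely 98 of the 108 described as bifunctional inhibitors and all 8 named LTP genes, and in none of the glycolipid transfer or START genes. The number of codons between CC and CxC separated the members into groups, which are called here by that number. There were 30 members with 12 codons, 23 with 13, 14 with 19, 19 with 8, 13 with 9 and 7 with another number. The stretch from the first to the last of the 8 cysteine codons is given here, 5′ to 3′ and with introns removed, for members on which the results turn. Capitals mark the cysteine codons. Of the 12-codon group it is given for 4 genes that were lower in non-green seeds, AT1G03103 at chr1:747291-747527 on the plus strand, AT2G48130 at chr2:19685657-19685890 on the minus strand, EDA4 at chr2:19686520-19686762 on the plus strand and LTPG5 at chr3:8007083-8007316 on the minus strand. AT1G62510, from the 13-codon group, lies at chr1:23136635-23136883 on the minus strand. LTP2 stands for the 19-codon group at chr2:16128565-16128822 on the plus strand, AT5G38160 for the 8-codon group at chr5:15225947-15226144 on the plus strand and DIR1 for the 9-codon group at chr5:19646320-19646538 on the minus strand.
AT1G03103: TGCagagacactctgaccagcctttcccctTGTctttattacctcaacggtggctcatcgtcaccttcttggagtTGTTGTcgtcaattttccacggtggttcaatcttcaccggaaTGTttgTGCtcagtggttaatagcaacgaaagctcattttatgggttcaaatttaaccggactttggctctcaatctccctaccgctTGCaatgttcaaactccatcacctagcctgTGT
AT2G48130: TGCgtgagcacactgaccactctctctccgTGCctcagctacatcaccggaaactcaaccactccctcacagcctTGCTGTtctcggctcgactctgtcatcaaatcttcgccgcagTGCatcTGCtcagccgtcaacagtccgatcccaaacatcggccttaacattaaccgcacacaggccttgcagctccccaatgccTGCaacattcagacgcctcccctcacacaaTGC
EDA4: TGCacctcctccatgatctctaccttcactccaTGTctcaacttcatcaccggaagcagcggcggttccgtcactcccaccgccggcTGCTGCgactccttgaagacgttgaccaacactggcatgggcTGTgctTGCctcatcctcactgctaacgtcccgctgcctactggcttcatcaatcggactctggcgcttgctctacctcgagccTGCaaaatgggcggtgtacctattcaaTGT
LTPG5: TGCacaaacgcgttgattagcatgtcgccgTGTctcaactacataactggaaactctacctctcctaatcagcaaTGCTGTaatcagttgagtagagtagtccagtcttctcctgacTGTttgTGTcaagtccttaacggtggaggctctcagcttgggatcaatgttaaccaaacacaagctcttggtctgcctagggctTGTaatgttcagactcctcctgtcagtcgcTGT
AT1G62510: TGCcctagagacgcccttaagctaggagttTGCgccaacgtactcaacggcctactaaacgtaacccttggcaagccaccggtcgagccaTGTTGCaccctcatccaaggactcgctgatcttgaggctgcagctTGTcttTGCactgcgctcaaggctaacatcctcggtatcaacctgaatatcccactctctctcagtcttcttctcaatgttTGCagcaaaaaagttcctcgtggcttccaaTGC
LTP2: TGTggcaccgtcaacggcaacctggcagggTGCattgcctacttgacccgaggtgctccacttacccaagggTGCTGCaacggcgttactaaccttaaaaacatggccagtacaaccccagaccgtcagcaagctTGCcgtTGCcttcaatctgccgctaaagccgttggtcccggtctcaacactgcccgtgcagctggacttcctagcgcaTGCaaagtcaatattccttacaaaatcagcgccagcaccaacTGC
AT5G38160: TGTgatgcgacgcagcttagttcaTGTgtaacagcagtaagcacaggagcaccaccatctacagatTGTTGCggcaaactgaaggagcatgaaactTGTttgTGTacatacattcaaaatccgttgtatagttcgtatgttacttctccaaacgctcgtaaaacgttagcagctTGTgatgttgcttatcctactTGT
DIR1: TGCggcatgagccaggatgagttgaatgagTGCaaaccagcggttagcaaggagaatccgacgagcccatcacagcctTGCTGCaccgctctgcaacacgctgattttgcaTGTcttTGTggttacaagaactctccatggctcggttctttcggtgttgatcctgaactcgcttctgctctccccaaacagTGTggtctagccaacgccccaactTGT
The groups also differed outside the motif. The 14 members of the 12-codon group with enough counts to test continued for 45 to 96 codons after the last cysteine, and the table's Gene Ontology terms place 11 of them as anchored to a membrane. Tested members of the 13-, 19-, 8- and 9-codon groups ended 0 to 23 codons after it, and 0 of them had such a term. Proline made up 3.0% to 48.8% of the codons before the motif over all members of the 13-codon group, 0% to 15.9% in the 12-codon, 0% to 7.4% in the 19-codon, 0% to 11.8% in the 8-codon and 0% to 7.1% in the 9-codon group, so these ranges overlap.

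Libraries held 16438639 to 16745514 counts each, and the superfamily held 67268 to 72734 of them. Chlorophyll synthase itself (CHLG, AT3G51820) had 11, 6 and 9 counts in the non-green libraries and 46, 50 and 65 in the green ones. Of the 123 members, 49 had no count in any library and 21 more had at most 20 counts in all 6 together, and 42 passed the filter on low counts. CPM (counts divided by library total and set to one common library size) were scaled between libraries by trimmed means (TMM), and a gene is called when edgeR's quasi-likelihood test gives a Benjamini-Hochberg adjusted p under 0.05 over all 17239 genes tested. Log2 fold changes are non-green over green and are given with their SE (n = 3 per group).

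Lipid transfer genes went both ways, and the larger falls lay in one structural group. Of the 42 tested members, 14 were lower and 8 higher in non-green seeds, and 20 were not called. Over all tested genes, 12.5% were called lower, 14.2% higher and 26.6% in either direction. At a fold of at least 1.5, 11 members were called, 7 lower and 4 higher, where all tested genes gave 8.13%, 2.63% lower and 5.49% higher. Scaled by total counts alone, 3266 genes were higher and 1364 lower (70.5% of calls higher, against 53.2% after TMM). The median log2 fold change was -0.22 over the tested members and 0.00 over all tested genes; a member had to reach the filter in at least 1 group to be tested. The members' median was -0.05 without green replicate 1 and -0.12 without non-green replicate 2. In 23 of the 42, the 3 non-green libraries did not overlap the 3 green ones in CPM, as in 37.3% of all tested genes. Among the 22 called members, the groups overlapped only for AT5G55460. A call with 3 libraries per group itself favours groups that do not overlap, so this count adds little to the calls. The share among all called genes was not computed.

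**Figure D1:**
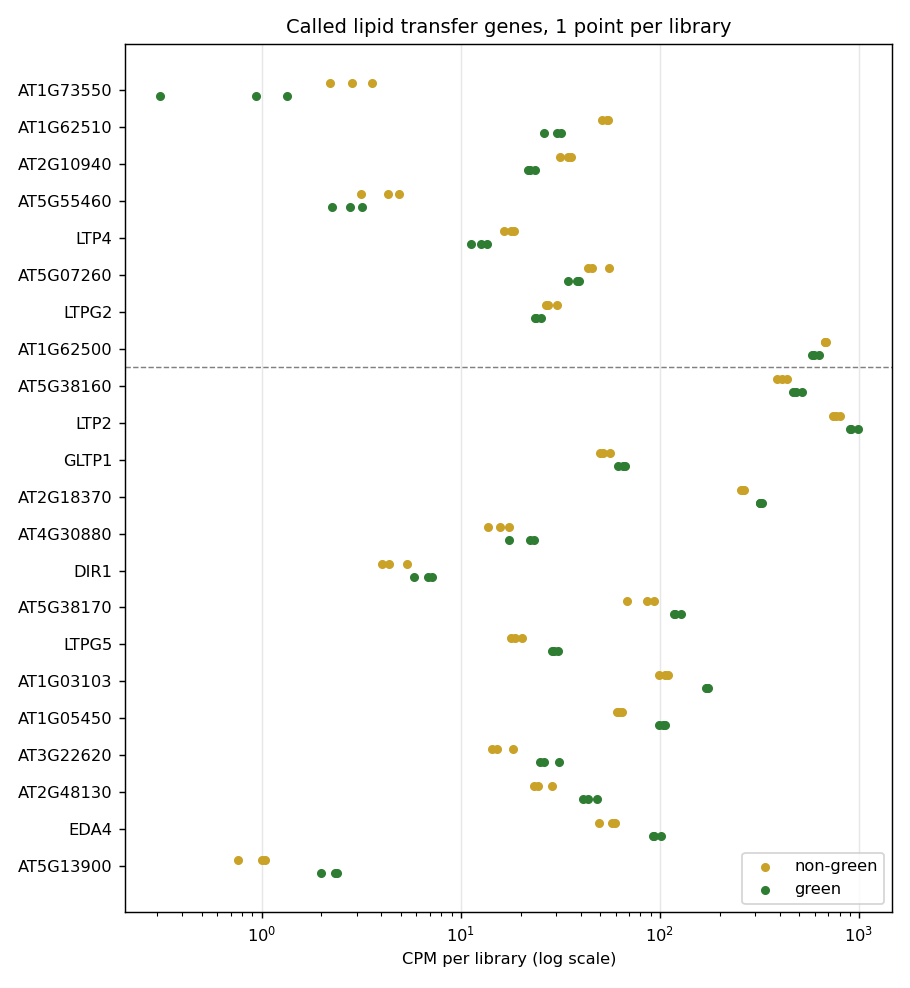
CPM in each library (log axis) of the 22 called members, ordered by fold change, with yellow points for the 3 non-green and green points for the 3 green libraries. The 8 members above the dashed line were higher in non-green seeds and the 14 below it lower, and AT5G55460 is the only one whose groups overlap.

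Members of the 12-codon group, which reach the cell surface through a membrane anchor in their best known cases, gave 7 of the 14 falls. This group held 14 of the 42 tested members. Of these 14, 7 were lower, 2 higher and 5 not called, with a median of -0.63. Over all tested genes, 12.5% were called lower and 14.2% higher. AT1G03103 had 99.2, 110 and 106 CPM in non-green libraries and 172, 175 and 170 CPM in green ones, which is -0.71 ± 0.04 (edgeR adjusted p = 2.82e-25). Every non-green library lay below every green one. AT1G05450 had the same change, -0.71 ± 0.05 (edgeR adjusted p = 9.78e-22), with 62.7, 64.8 and 61.2 CPM in non-green and 99.5, 106 and 104 CPM in green libraries. Over all spacings, the Gene Ontology term for a membrane anchor was held by 12 tested members. Among them were 5 falls and 1 rise (median log2 fold change -0.32). The 30 tested members without the term included 9 falls and 7 rises (median -0.22). In the 12-codon group, AT1G03103 and AT3G22620, which both fell, lack the term, as does AT1G73550, which rose. The part of the anchor in the falls was not tested.

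EDA4 (AT2G48140), named for an embryo sac arrest mutant, and its neighbour AT2G48130 fell alike. EDA4 had 59.5, 49.8 and 57.5 CPM in non-green and 92.9, 102 and 93.8 CPM in green libraries, -0.79 ± 0.05 (edgeR adjusted p = 4.16e-22). AT2G48130 had 24.5, 28.9 and 23.3 CPM in non-green and 43.4, 48.4 and 41.3 CPM in green libraries, -0.79 ± 0.08 (edgeR adjusted p = 3.95e-15). For both genes all non-green values were below all green ones, and the fitted level in non-green seeds was 0.578 times that in green seeds. Their coding stretches printed above differ in spacing, with 10 and 17 codons in the first gaps of EDA4 and 9 and 14 in those of AT2G48130. The genes lie back to back in TAIR10.1, AT2G48130 on the minus and EDA4 on the plus strand, with 276 bases between their annotated ends at chr2:19686057-19686332. That stretch is shown on the plus strand because it is upstream of both, with the match to a searched motif in capitals.
AT2G48130 to EDA4: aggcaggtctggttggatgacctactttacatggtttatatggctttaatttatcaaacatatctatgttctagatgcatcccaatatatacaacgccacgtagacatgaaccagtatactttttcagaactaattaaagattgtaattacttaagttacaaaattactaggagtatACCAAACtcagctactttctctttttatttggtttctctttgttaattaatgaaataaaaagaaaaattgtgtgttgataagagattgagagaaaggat
Motif patterns were searched on both strands. ACCNAAC, an element bound by many MYB factors, had 1 match, and 15.7% of the 27443 upstream regions of this length before protein-coding genes hold at least 1. CACGTG (the G-box), TTGAC (the W-box core) and CNGTTA (another MYB element) had 0 matches, and 6.8%, 47.7% and 28.8% of the upstream regions hold them.

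A second nearby pair on chromosome 3 belonged to the same group. LTPG5 (AT3G22600), named as a glycosylphosphatidylinositol-anchored lipid transfer protein, had 17.9, 20.4 and 18.8 CPM in non-green and 28.8, 29.3 and 31.0 CPM in green libraries, -0.64 ± 0.08 (edgeR adjusted p = 1.32e-09). AT3G22620 had 14.4, 15.3 and 18.3 CPM in non-green and 26.2, 31.3 and 25.1 CPM in green libraries, -0.78 ± 0.09 (edgeR adjusted p = 5.33e-11). Neither gene had overlapping groups. The largest fall of the superfamily by fold was in a gene of low level, AT5G13900, with 18, 13 and 17 counts in non-green and 38, 32 and 39 counts in green libraries, -1.26 ± 0.35 (edgeR adjusted p = 0.00346).

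Of the other 7 tested genes of the 12-codon group, 2 were higher and 5 were not called. AT1G73550 had the largest rise of all members, with 62, 38 and 48 counts in non-green and 5, 15 and 22 counts in green libraries, 1.73 ± 0.35 (edgeR adjusted p = 3.41e-05). In CPM this was 3.57, 2.22 and 2.86 in non-green and 0.309, 0.940 and 1.34 in green libraries, and the groups did not overlap. LTPG2 (AT3G43720), which takes part in the export of cuticular wax, had 27.5, 26.7 and 30.4 CPM in non-green and 23.8, 25.4 and 23.7 CPM in green libraries, 0.21 ± 0.08 (edgeR adjusted p = 0.0417). That call was lost in 6 of 10 alternatives, among them DESeq2 (adjusted p = 0.0760) and leaving out non-green replicate 3 (adjusted p = 0.244). XYP1 (AT5G64080), a xylogen protein known from vessel formation, was the most abundant of the group by CPM and was not called, at 593, 621 and 611 CPM in non-green and 603, 616 and 592 CPM in green libraries (0.01 ± 0.04, edgeR adjusted p = 0.861). AT1G62790 had 0.13 ± 0.06 (edgeR adjusted p = 0.0865), and the last 3 genes were under 2 CPM on average in both groups. AT2G27130 had -0.61 ± 0.36 (edgeR adjusted p = 0.218), XYP2 0.46 ± 0.48 (0.536) and AT5G09370 0.19 ± 0.37 (0.769), so their SEs allow changes as large as some of those called.

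**Figure D2:**
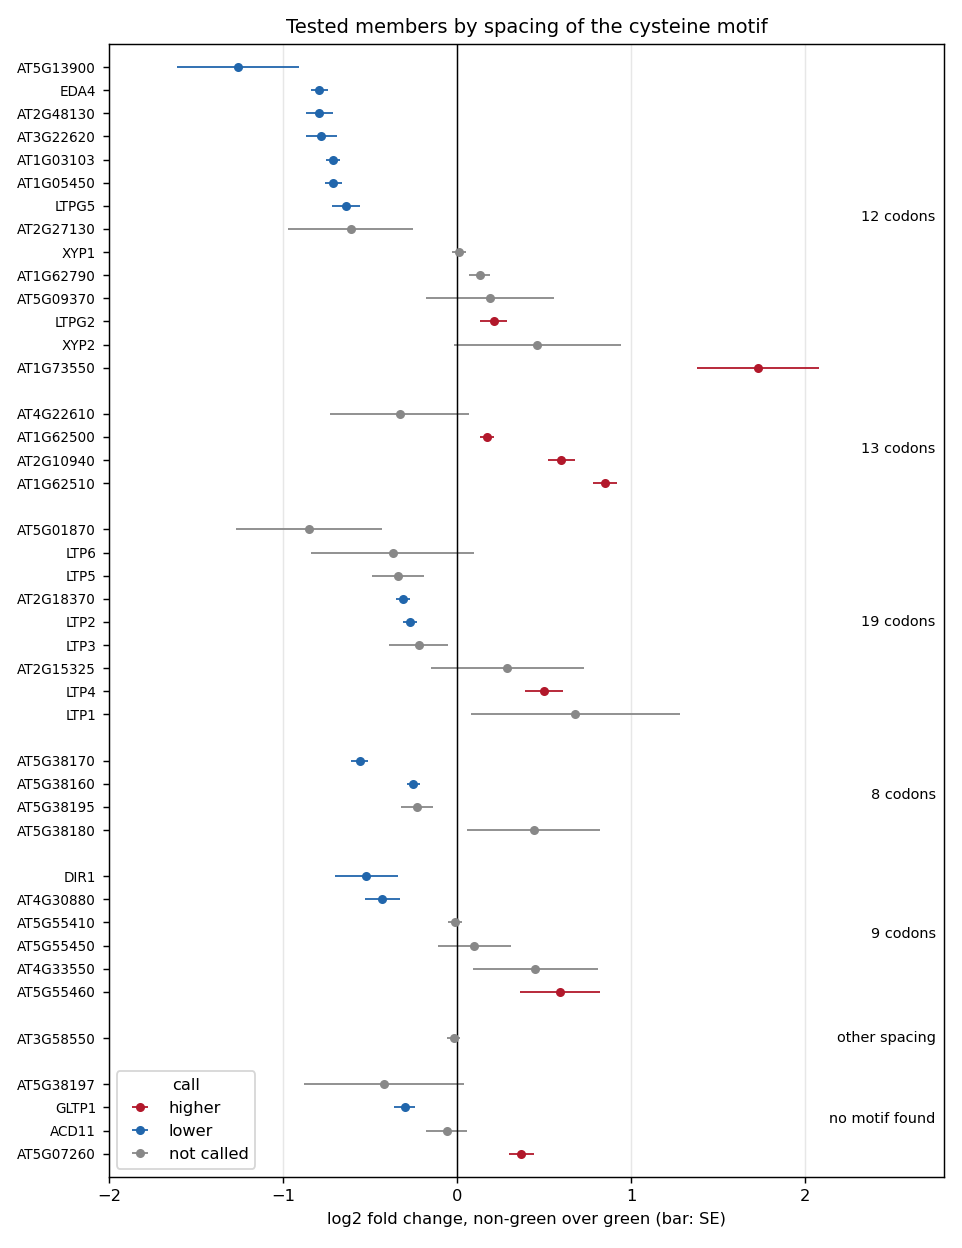
Log2 fold change (non-green over green) with its SE of the 42 tested members, split by the number of codons between CC and CxC, with blue for called lower, red for called higher and grey for not called. The 12-codon panel holds 14 of the 42 tested members and 7 of the 14 lower ones, those 7 at -0.64 or below. The 13-codon panel holds 3 higher members and 0 lower ones.

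Of the 4 tested members of the 13-codon group, 3 were higher and 0 lower in non-green seeds (14.2% and 12.5% of all tested genes). In the 3 that were higher, proline made up 22.7% to 32.2% of the codons before the motif. The remaining tested gene, AT4G22610, with 7.4% proline there, was not called (-0.33 ± 0.40, edgeR adjusted p = 0.606). It was also far less abundant than those 3, with 9, 19 and 23 counts in non-green and 19, 26 and 16 counts in green libraries. AT1G62510 had 54.3, 51.0 and 55.2 CPM in non-green and 30.4, 32.1 and 26.3 CPM in green libraries, 0.85 ± 0.07 (edgeR adjusted p = 1.06e-18). AT2G10940 had 34.7, 31.5 and 35.9 CPM in non-green and 21.8, 22.2 and 23.5 CPM in green libraries, 0.60 ± 0.08 (edgeR adjusted p = 1.79e-09). In both genes the groups were well apart. AT1G62500, which precedes AT1G62510 by locus number, was far more abundant and rose less, with 673, 677 and 680 CPM in non-green and 581, 628 and 596 CPM in green libraries, 0.17 ± 0.04 (edgeR adjusted p = 6.36e-05). The other 19 genes of this group did not reach the filter, so nothing was tested in them. They include EARLI1, a cold-responsive gene with 26.2% proline and 0 counts in all libraries, and AT3G22142, with 39.0% proline and 2, 4 and 5 counts in non-green and 5, 7 and 4 counts in green libraries.

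The classical lipid transfer proteins carry 19 codons between CC and CxC. Of 9 tested, 2 were lower, 1 higher and 6 not called (12.5% lower and 14.2% higher over all tested genes). LTP2 (AT2G38530), which is known from the cuticle of the seedling epidermis, had 767, 738 and 806 CPM in non-green and 908, 985 and 902 CPM in green libraries, -0.27 ± 0.04 (edgeR adjusted p = 6.72e-10). AT2G18370, named LTP8 in the table's curator text, had 255, 265 and 261 CPM in non-green and 320, 328 and 320 CPM in green libraries, -0.31 ± 0.04 (edgeR adjusted p = 1.07e-10). In both, the non-green libraries lay below all green ones. LTP4 (AT5G59310), a gene known to respond to abscisic acid and drought, rose, with 17.8, 16.5 and 18.6 CPM in non-green and 11.3, 12.6 and 13.6 CPM in green libraries, 0.50 ± 0.11 (edgeR adjusted p = 0.000106). Its tandem partner LTP3 overlapped between groups, at 6.68, 4.73 and 6.19 CPM in non-green and 8.03, 6.58 and 5.87 CPM in green libraries (-0.22 ± 0.17, edgeR adjusted p = 0.373).

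Transcripts of LTP3 and LTP4 share a run of 44 bases, and those of LTP1 and LTP2 a run of 40, so reads within these runs can be counted for either gene. LTP1 (AT2G38540) had 16, 10 and 3 counts in non-green and 1, 5 and 11 in green libraries, far below LTP2, and was not called (0.68 ± 0.60, edgeR adjusted p = 0.463). LTP5 (AT3G51600) had 6.74, 6.36 and 6.43 CPM in non-green and 8.15, 8.96 and 7.58 CPM in green libraries, which did not overlap, but it did not pass the threshold (-0.34 ± 0.15, edgeR adjusted p = 0.0864). LTP6, AT2G15325 (LTP9 in the curator text) and AT5G01870 (LTP10) averaged under 1.5 CPM in each group and were not called. Leaving out non-green replicate 2 gave a call for AT5G01870 (-1.48, adjusted p = 0.0257).

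The 4 tested members with 8 codons between CC and CxC came from one run of locus numbers on chromosome 5. Of them 2 were lower, as were 12.5% of all tested genes. AT5G38170 had 93.1, 68.6 and 86.3 CPM in non-green and 128, 118 and 119 CPM in green libraries, -0.56 ± 0.05 (edgeR adjusted p = 1.49e-14). AT5G38160 had 434, 389 and 413 CPM in non-green and 482, 517 and 467 CPM in green libraries, -0.25 ± 0.04 (edgeR adjusted p = 1.42e-07). Both had non-green values below all green ones. The non-green libraries of AT5G38170 spread widely (SD 12.6 CPM), and its log2 fold change was -0.65 to -0.44 over the alternatives. DESeq2 gave weaker calls, with an adjusted p of 0.000177 for AT5G38170 and 0.000468 for AT5G38160. AT5G38195 was at -0.23 ± 0.09 (edgeR adjusted p = 0.0624) and AT5G38180, at about 1 CPM, at 0.44 ± 0.38 (edgeR adjusted p = 0.453), so these 2 did not pass. The longest run of bases shared between the transcripts of AT5G38160 or AT5G38170 and any other member was 19, and AT5G38195 shares 41 with AT5G38197.

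In the 9-codon group, 2 of 6 tested members were lower and 1 higher (12.5% and 14.2% of all tested genes). DIR1 (AT5G48485), a mobile signal protein of systemic acquired resistance, had 4.03, 5.37 and 4.35 CPM in non-green and 5.80, 6.83 and 7.15 CPM in green libraries, -0.52 ± 0.18 (edgeR adjusted p = 0.0173). That call was lost without non-green replicate 1 (adjusted p = 0.0926) or 3 (0.0560) and without green replicate 2 (0.0507) or 3 (0.0813). AT4G30880 fell by 0.43 ± 0.10 on the log2 scale (edgeR adjusted p = 0.000457), with 13.7, 17.4 and 15.7 CPM in non-green and 17.5, 23.3 and 22.3 CPM in green libraries. Its highest non-green and lowest green library nearly touched. AT5G55460 had 4.90, 4.32 and 3.16 CPM in non-green and 2.78, 3.20 and 2.26 CPM in green libraries, 0.59 ± 0.23 (edgeR adjusted p = 0.0465), with groups that overlapped and a call that 5 of 10 alternatives lost, among them DESeq2 (0.0803) and leaving out non-green replicate 1 (0.250). AT5G55410, the most abundant of the group, was level at 207, 219 and 218 CPM in non-green and 216, 218 and 215 CPM in green libraries (-0.01 ± 0.04, edgeR adjusted p = 0.875).

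Of the 17 members in which the cysteine motif was not found, 5 are glycolipid transfer proteins, 2 hold a START domain and 10 are described as bifunctional inhibitors, and 4 were tested. GLTP1 (AT2G33470), a glycolipid transfer protein, had 50.0, 52.0 and 56.0 CPM in non-green and 65.2, 67.0 and 61.7 CPM in green libraries, -0.30 ± 0.06 (edgeR adjusted p = 1.72e-05). ACD11, a sphingolipid transfer protein whose loss brings on cell death, was not called (-0.06 ± 0.12, edgeR adjusted p = 0.779). AT5G07260, with a START domain, rose, with 55.3, 45.5 and 43.4 CPM in non-green and 38.2, 34.5 and 39.2 CPM in green libraries, 0.37 ± 0.07 (edgeR adjusted p = 1.29e-05). In GLTP1 and AT5G07260 the groups did not overlap. AT5G38197, described as a bifunctional inhibitor, had 12, 14 and 8 counts in non-green and 15, 15 and 13 counts in green libraries and was not called (-0.42 ± 0.46, edgeR adjusted p = 0.566).

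Levels per gene length differed widely between members. In RPKM, for which the authors divided counts by gene length and by library total, with no TMM scaling, LTP2 was highest, with 1179 ± 40.7 in non-green and 1354 ± 48.2 in green seeds (SD, n = 3 each). AT5G38160 followed with 955 ± 56.3 in non-green and 1076 ± 42.9 in green seeds, then XYP1 with 727 ± 16.6 and AT1G62500 with 476 ± 4.44 in non-green seeds, against 685 ± 9.0 and 402 ± 10.3 in green seeds. The next levels lay closer. AT2G18370 and AT3G58550 were within the spread of each other in non-green seeds, at 383 ± 7.27 and 390 ± 14.5, and apart in green seeds, at 451 ± 2.07 and 376 ± 6.23. By raw counts, the 5 most abundant members held 67.8% of all counts of the superfamily. The superfamily took 0.410%, 0.404% and 0.409% of all counts in non-green and 0.427%, 0.437% and 0.420% in green libraries. The groups did not overlap (two-sided exact permutation p = 0.1, and 3 against 3 can give none lower). The 5 most abundant members took 0.282%, 0.277% and 0.280% in non-green and 0.285%, 0.294% and 0.281% in green libraries, which overlapped (exact permutation p = 0.2). The 118 members outside the top 5 took 0.128% ± 0.0009 in non-green and 0.141% ± 0.00207 in green libraries (exact permutation p = 0.1).

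**Figure D3:**
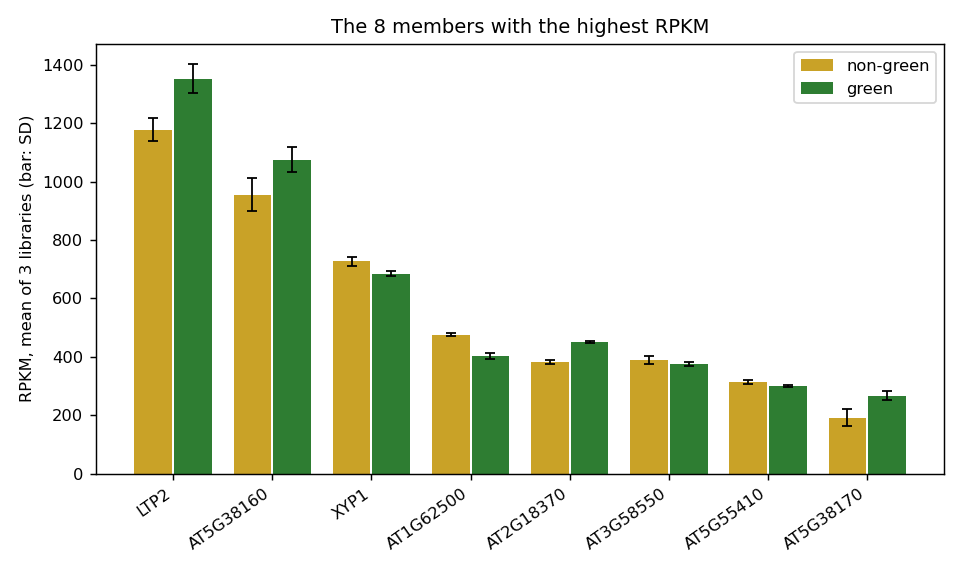
Mean RPKM with SD over 3 libraries of the 8 members with the highest mean RPKM, with non-green seeds in yellow and green seeds in dark green. LTP2 leads at 1179 in non-green and 1354 in green seeds, and XYP1, AT1G62500, AT3G58550 and AT5G55410 have the higher bar in non-green seeds. RPKM carry no TMM scaling. After TMM, XYP1 (log2 fold change 0.01 ± 0.04), AT3G58550 (-0.02 ± 0.04) and AT5G55410 (-0.01 ± 0.04) were level and not called.

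LTP12 and the anther gene A7 had 0 counts in all 6 libraries, and of 4 tapetum markers 0 reached the filter, with MS1 and DYT1 at 0 and AMS at 4, 4 and 7 counts in non-green and 1, 9 and 9 counts in green libraries. Of the other members under the filter, AT5G48490, which neighbours DIR1 by locus number, had 1, 3 and 0 counts in non-green and 3, 6 and 22 in green libraries, most of them in green replicate 3. Among the fits made here, AT5G48490 was called lower only with no filter on low counts (adjusted p = 0.00862) or with DESeq2 (adjusted p = 0.0249). The authors' own comparison also has it lower (-0.56, adjusted p = 0.0306).

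Genes of suberin, a polyester with waxes that is laid down in roots and the seed coat, were lower nearly throughout. In a list of 16 genes, 15 were tested, of which 14 were lower and 0 higher (12.5% and 14.2% of all tested genes), with a median of -0.45. ABCG2, at under 1 CPM, was not called. The feruloyl transferase gene ASFT had 139 ± 5.39 CPM in non-green and 212 ± 2.67 CPM in green seeds (SD, n = 3), -0.61 ± 0.04 (edgeR adjusted p = 1.68e-22). The fatty alcohol-forming reductase gene FAR1 had -0.54 ± 0.04, the fatty acid hydroxylase gene CYP86B1 -0.45 ± 0.04 and the transporter gene ABCG20 -0.45 ± 0.04. Summed over the list, non-green libraries held 1668 to 1682 CPM and green libraries 2185 to 2300 CPM.

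Genes of cutin and wax went both ways. Of 37 genes 24 were tested, with 10 lower, 9 higher and 5 not called and a median of -0.10. Over all tested genes, 12.5% were called lower and 14.2% higher. The condensing enzyme gene CER6 had 129 ± 2.41 CPM in non-green and 178 ± 2.39 CPM in green seeds, -0.46 ± 0.04 (edgeR adjusted p = 3.07e-16), and LACS1, KCS1 and GPAT4 had -0.49 ± 0.05, -0.47 ± 0.05 and -0.72 ± 0.08. The acyltransferase gene DCR rose, with 49.3 ± 2.54 CPM in non-green and 27.9 ± 1.96 CPM in green seeds, 0.82 ± 0.07 (edgeR adjusted p = 2.14e-17), as did LACS4, KCR1 and BDG, by 0.41 ± 0.04, 0.30 ± 0.04 and 0.89 ± 0.19. Of the 7 list genes with no counts, 3 were the SHN regulators of cutin synthesis.

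Markers of the seed's tissues went different ways. The summed CPM of the seed coat and embryo lists did not overlap between groups, while those of epidermis, endosperm and silique wall did. Over all tested genes, 12.5% were called lower and 14.2% higher, and the marker lists here hold only 4 to 11 tested genes each. Of 13 seed coat markers 11 were tested, of which 7 were lower, 0 higher and 4 not called, and 0 of the 13 were without counts. Their summed level was 894 to 908 CPM in non-green and 1227 to 1281 CPM in green libraries. TT10 alone made up the largest part of it, with 532 ± 5.15 CPM in non-green and 725 ± 25.1 CPM in green seeds. GL2, a regulator of the coat epidermis, had 52.4 ± 2.34 CPM in non-green and 97.1 ± 3.41 CPM in green seeds (-0.89 ± 0.05, edgeR adjusted p = 5.46e-26). Of 5 epidermis markers 1 was higher and 2 were lower, with sums of 1044 to 1075 CPM in non-green and 1020 to 1048 CPM in green libraries. Of 7 embryo markers 4 were higher and 1 was lower, with sums of 102166 to 106541 CPM in non-green and 107268 to 113258 CPM in green libraries. The storage protein gene CRA1, the marker called lower, made up most of these sums, with 84167 ± 1799 CPM in non-green and 91029 ± 2546 CPM in green seeds. OLEO1, called higher, made up most of the rest, with 19528 ± 507 and 18556 ± 472 CPM. These sums therefore do not show the level of the other embryo markers. Of 8 endosperm markers 4 were tested and 2 were lower, with a median log2 fold change of -0.66, and PHE1 was at 0. Their sums were 14.4 to 17.6 CPM in non-green and 16.8 to 21.9 CPM in green libraries. Silique wall markers, of which 2 of 6 tested were higher, 0 were lower and FUL was at 0, summed to 89.8 to 106 CPM in non-green and 86.7 to 93.0 CPM in green libraries. The part of tissue shares in the lipid transfer results was not tested.

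**Figure D4:**
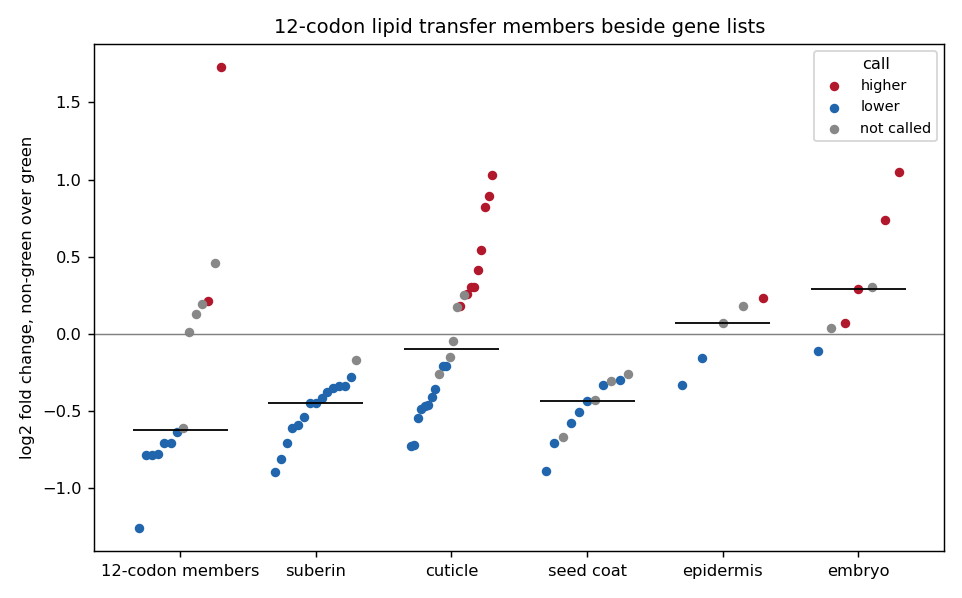
Log2 fold change (non-green over green) of each tested gene in the 12-codon group of lipid transfer proteins and in 5 gene lists, with blue for called lower, red for called higher, grey for not called and a black line at the median. The suberin list has 14 of 15 genes called lower and a median of -0.45, the seed coat markers 7 of 11 and -0.44, while the cutin and wax list spreads to both sides of 0. The endosperm list (4 tested, median -0.66) and the silique wall list (6 tested, median 0.01) are not drawn.

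The authors' deposited table gives its own comparison of the same libraries. At an adjusted p under 0.05, the authors' deposited table has 6 members higher and 15 lower, and it lists EDA4 (AT2G48140) at -0.784, AT1G03103 at -0.713 and AT1G62510 at 0.828 on the log2 scale. The authors' deposited table puts AT1G73550 at 1.073 and AT5G13900 at -0.824, both nearer to 0 than the fits made here.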

How the data were processed

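RNA sequencing libraries of 3 non-green and 3 green seed samples were analysed. The authors deposited raw counts per gene model, and Bowtie 0.12.2 and build TAIR10 were used per the submitters' processing notes. No source used here states the counting program, gene models, strand use, read length or how multiply mapping reads were handled, so counts of near-identical copies can be exchanged. The authors also deposited RPKM, which is the count divided by gene length and library total: 100% of the 29216 values whose rounding allows it give a whole length within 0.05 bases. The authors' deposited log2 fold changes and adjusted p-values of their own comparison were quoted only where named.

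Genes were filtered with filterByExpr by group (17239 kept, at least 99.9% of counts), scaled by TMM (factors 0.959 to 1.04) and tested with edgeR 4.0.16 in R 4.3.3 (glmQLFit, glmQLFTest, group as the only term, Benjamini-Hochberg adjustment over all genes). The common biological coefficient of variation was 5.68%. Each SE came from the absolute log2 value over the root of its F statistic. Replicates of a group differed by 2.46 to 3.05 times the sampling noise (chi-square per gene), so none was a copy. DESeq2 1.42.0, total count scaling, no filter, a replicate block and leaving out each library were the alternatives. The fitting code was also run on simulated counts that gave all genes the same variation, which does not check the fits of these data.

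The members and gene lists were chosen with earlier results of these data known. Members named in full were the 10 largest called changes in each direction with groups that do not overlap and a mean of at least 1 CPM, the 8 highest by RPKM and the tested genes with an LTP, LTPG or DIR1 name. From the cutin and suberin lists, up to 4 called genes per direction with the smallest adjusted p were named. AT4G22610, AT5G48490, AT5G55460, GLTP1, ACD11, AT1G62790 and the other members outside this rule were added after their values were seen. Coding sequences came from RefSeq on TAIR10.1. Gene lengths implied by counts and RPKM equal an annotated transcript there for 18 of 123 members. The 49 members with no count in any library have no implied length and were scored as unequal. Few counts give only an approximate length. The reason for the other differences was not tested. Cysteine spacing was read from the longest coding sequence of each gene.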

Additional observations from a re-analysis of the deposited data

How the results depend on the processing

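Over 10 alternatives, 19 of the 22 called members kept their call and direction in every one. The exceptions were DIR1, LTPG2 and AT5G55460. Called members numbered 6 to 10 higher and 13 to 15 lower, with 10 higher and 14 lower under total count scaling, 6 and 15 in DESeq2, 7 and 15 when low genes were kept, and 6 to 9 and 13 to 15 when single libraries were left out. Total count scaling moved the median of all tested genes by 0.08 and the higher share of calls to 70.5%, against 53.2%, and XYP1 (0.09, adjusted p = 0.0404) and AT1G62790 (0.21, adjusted p = 0.00365) were called there. The median log2 fold change of the tested members was -0.26 to -0.05 without single libraries, with -0.05 without green replicate 1, and the cause was not tested. The difference in the superfamily's share of counts stayed at -0.024 to -0.016 percentage points without single libraries. Suberin genes called lower numbered 13 or 14 in all alternatives.

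Same-numbered libraries did not deviate together (correlations 0.013, 0.004 and -0.001). These correlations cannot show whether same-numbered libraries came from the same plants or siliques. With the replicate block, 8 members were higher and 14 lower. The 5 tested members under 1 CPM in both groups had SEs of 0.44 to 0.60. A change must exceed its SE by a good margin to be called, so changes larger than these SEs could also be missed. AT5G01870, at a slightly higher level, was not called at -0.85 ± 0.42 (edgeR adjusted p = 0.129).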
